A study of Solanum tuberosum with 12 samples.

Results

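Transcripts for water channels, for dehydration proteins and for the abscisic acid (ABA) pathway were examined in leaves of potato (Solanum tuberosum) cultivar Desiree grown at normal temperature (NT) or high temperature (HT). The members were the transcripts of the authors' lists of HT-regulated transcripts whose product name holds a word for an aquaporin, a dehydrin or other late embryogenesis abundant (LEA) protein, dehydration or desiccation, abscisic acid, or protein phosphatase 2C (PP2C). The rule found 46 of the 6438 listed transcripts, each from a gene of its own. Of these, 18 were aquaporins, 10 were PP2Cs, 8 carried ABA in the name, 5 were LEA proteins or dehydrins and 5 were named for dehydration. The list for 8 weeks held 41 of them and the list for 3 weeks held 8, with 3 in both.

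Days of 12 h light and 12 h dark were given to plants in soil for 3 or 8 weeks. NT was 22 °C by day and 16 °C by night, and HT was 35 °C by day and 29 °C by night. All 4 groups are of the same cultivar, were started as plantlets on agar medium with sucrose, and had the upper 5 leaves taken. Each group has 3 strand-specific poly(A) libraries, 12 in all, with totals of 52514661 to 66602938 counts. The labels do not say whether a library is 1 plant or several, or whether the 3 come from separate plants, and p-values cover only the spread among these libraries, which may be technical.

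Aquaporins are membrane channels that let water, and in some subfamilies other small solutes, cross a membrane. Plasma membrane intrinsic proteins (PIPs) sit mostly in the plasma membrane, tonoplast intrinsic proteins (TIPs) mostly in the membrane of the vacuole, and the nodulin-26-like NIPs carry small solutes such as metalloids. ABA is the hormone that closes stomata and switches on protective genes when water is short. In Arabidopsis, ABA bound to a PYR/PYL receptor holds back certain PP2Cs, which otherwise keep SnRK2 kinases inactive. Dehydrins and other LEA proteins are hydrophilic proteins that build up in drying or cold tissue and in seeds.

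Levels are RPKM, read counts set against transcript length and library size. The library totals were scaled by the median shift between HT and NT in the authors' fold changes. Log2 changes are HT against NT with their approximate standard error, from edgeR's quasi-likelihood test with Benjamini-Hochberg adjustment over the listed transcripts tested, and "rose" or "fell" means an adjusted p under 0.05. The authors listed only transcripts past 1.5 in absolute log2 change with p-values below 0.01 on the same libraries. A call is therefore not independent evidence of a change, and a member absent from the list of one age is not shown to be unchanged there. Because the RNA comes from whole leaves, fewer cells of a type and less RNA per cell cannot be told apart.

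Marker sets for photosynthesis and for cell division, both drawn from the authors' list, were higher at HT at 8 weeks. Over all tested transcripts of that list 59.3% rose. Whether the makeup of the leaves differed was not tested. Of the listed products, 39 of 39 photosynthesis transcripts and 69 of 69 tested transcripts of cyclins, kinesins and histones rose, and 0 of either set was at 0 counts throughout NT. The summed level of the photosynthesis transcripts ran from 9402 to 10670 CPM (counts scaled to the library total) at NT and from 29450 to 66970 at HT. That of the cell division transcripts ran from 129.9 to 175.7 at NT and from 433.9 to 1331 at HT, with HT replicate 1 highest for both sets. With DESeq2, 17 and 21 of them rose and 0 fell. Calls of the cell division set numbered 36 without HT replicate 1, 40 without NT replicate 1, 43 without NT replicate 2 and 44 with a replicate block, all rises, and its median log2 change went from 2.76 to 1.48 without HT replicate 1. Of the tested patatin transcripts at 8 weeks, for the tuber storage protein, 5 rose and 2 fell, and of those named for pollen, anthers or MADS factors 16 rose and 8 fell. At 3 weeks 4 of 9 photosynthesis transcripts rose and 5 fell, and 2 of 6 cell division transcripts rose and 4 fell. The summed levels at 3 weeks were lower at HT, opposite to 8 weeks. Photosynthesis transcripts summed to 6523, 6892 and 7414 CPM at NT and 2295, 2615 and 2208 at HT. Cell division transcripts summed to 113.1, 86.79 and 80.03 CPM at NT and 30.04, 36.36 and 39.49 at HT. The part of these differences in the changes described here was not tested.

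At 8 weeks, 27 of the 40 members that could be tested rose at HT (67.5%) and 12 fell (30.0%). Over all 5176 tested transcripts of that list the shares were 59.3% and 38.0%, and 97.3% were called in one direction or the other. The 3 HT libraries lay entirely on one side of the 3 NT libraries for 39 of the 40, where 95.5% of all tested transcripts did so. The members' median log2 change was 2.04, beside 1.80 for all tested. These shares lie near the background, and the members are therefore described by role. Most aquaporins, most PP2Cs and the dehydration-named transcripts rose at HT, and the ABA receptors and dehydrins fell.

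**Figure D1:**
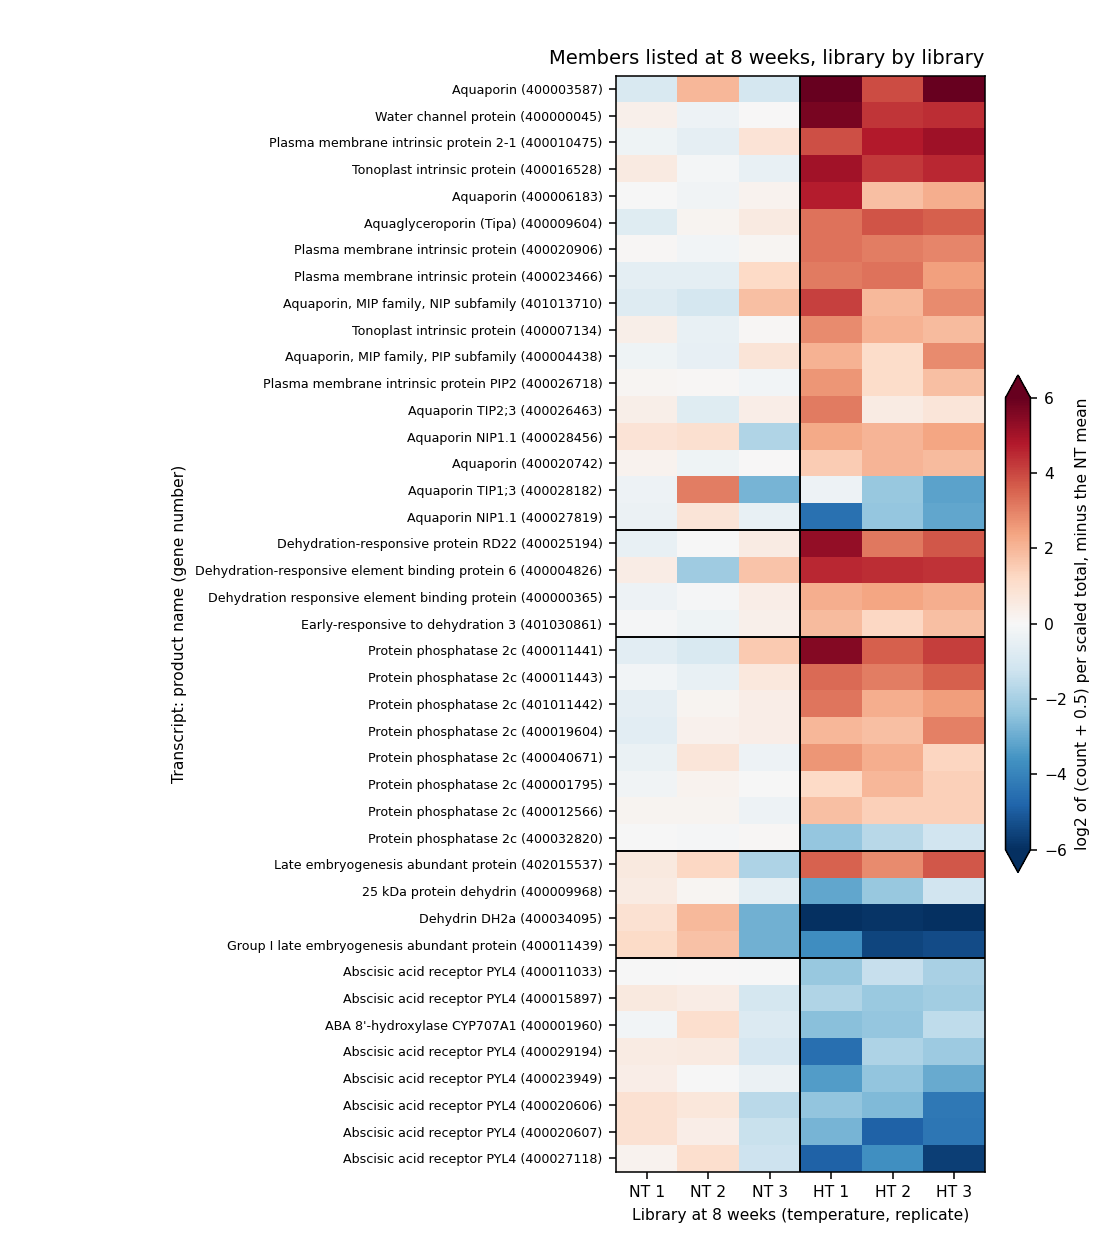
Each row is a member listed at 8 weeks and each column a library; colour gives the log2 of count plus 0.5 over the scaled total minus the NT mean, red above and blue below. From top to bottom the blocks are aquaporins (15 of 17 rose), dehydration-named transcripts (4 of 4 rose), PP2Cs (7 of 8 rose), LEA proteins and dehydrins, and ABA-named transcripts (8 of 8 fell).

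The number of calls depended on how libraries were scaled, while no tested member at 8 weeks changed sign with DESeq2 or TMM. Size factors that DESeq2 estimated from the listed transcripts lowered the log2 change of all transcripts by a median of 1.28 at 8 weeks, and TMM on the same transcripts by 0.43. With DESeq2, 14 members rose and 14 fell, and over the whole list 1431 rose and 2166 fell in place of 3067 and 1967. Aquaporins then numbered 8 higher and 2 lower, PP2Cs 3 higher and 1 lower, and dehydration-named transcripts 3 higher and 0 lower. All 8 ABA-named transcripts fell under DESeq2 and TMM alike. Both scalings come from a list of called transcripts, most of them rises, from which library sizes cannot be estimated. They move changes downward, so a fall kept under them is no separate support for it. A rise lost under them is not shown to be absent, and which scaling is right was not tested.

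**Figure D2:**
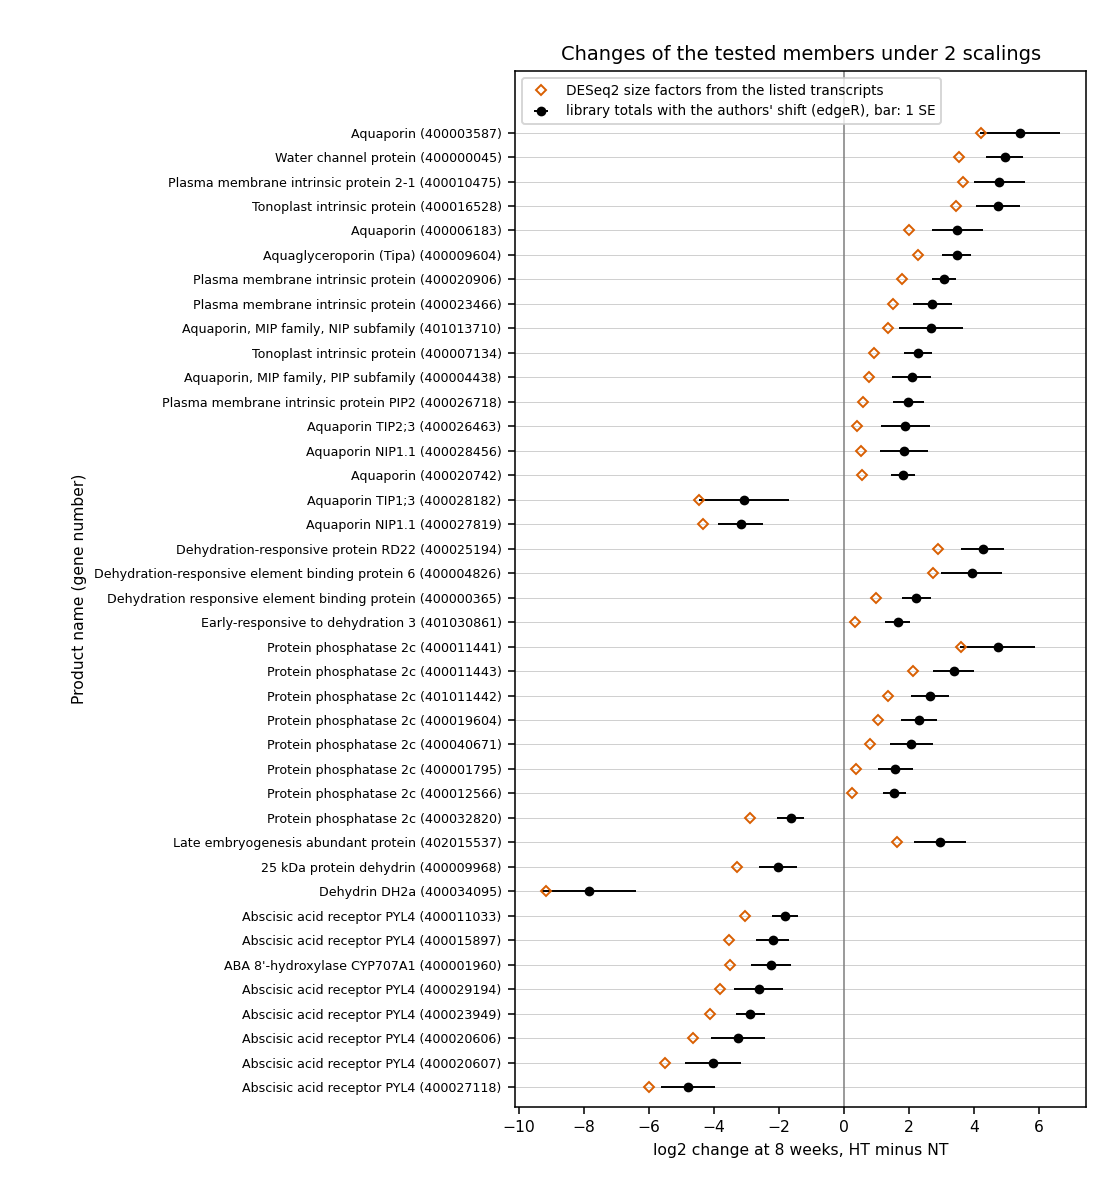
The log2 change at 8 weeks (x axis, HT minus NT) of each tested member is shown with library totals and the authors' shift (black, bar 1 SE) and with DESeq2 size factors (orange diamonds). Diamonds lie to the left of the black points for every member, and no member crosses 0; Early-responsive to dehydration 3, for example, moves from 1.66 to 0.34.

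Most aquaporins rose at HT at 8 weeks. Of 17 listed, 15 rose and 1 fell: 4 of 5 TIPs, 5 of 5 PIPs, 2 of 3 NIPs and 4 of 4 with no subfamily in the name rose. Their summed level was 197, 159 and 179 RPKM in the 3 NT libraries and 1145, 692 and 679 RPKM in the 3 HT libraries. All HT libraries lay above all NT libraries, with HT replicate 1 highest. The mean went from 178 ± 19.1 to 839 ± 265 RPKM (SD, n = 3). The 3 NIPs together went the other way, from 8.28, 17.1 and 7.68 RPKM at NT to 5.95, 4.32 and 4.65 RPKM at HT, and with DESeq2 0 of them rose and 1 fell. That fall was of 1 transcript, NIP1.1 PGSC0003DMG400027819, which made up 92.6% of the NIP level at NT, while 2 of the 3 NIPs rose.

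A single tonoplast intrinsic protein, PGSC0003DMG400007134, made up 43.3% of the summed aquaporin level at NT and 45.0% at HT. It had 96.2, 54.9 and 79.9 RPKM in the NT libraries and 538, 314 and 279 RPKM in the HT libraries, with no overlap. It rose by 2.29 ± 0.44 on the log2 scale (adjusted p = 0.0029 by edgeR's quasi-likelihood test). With DESeq2 the change was 0.93 and was not called (adjusted p = 0.063).

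The 4 largest rises began from low levels. Aquaporin PGSC0003DMG400003587 had 0, 0.0859 and 0 RPKM at NT and 2.10, 0.365 and 1.85 RPKM at HT. Only NT replicate 2 held any read of it, and the HT libraries all lay above. Its log2 change was 5.43 ± 1.24 (edgeR, adjusted p = 0.0048), and 9.01 without NT replicate 2. The NT libraries left in that fit held 0 counts, so the data do not set the size of that change.

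The transcript named water channel protein, PGSC0003DMG400000045, had 0.780, 0.514 and 0.650 RPKM at NT and 33.5, 12.5 and 14.1 RPKM at HT. The NT libraries were close together, and the lowest HT library was far above them. It rose by 4.95 ± 0.58 on the log2 scale (edgeR, adjusted p = 0.00081).

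Plasma membrane intrinsic protein 2-1, PGSC0003DMG400010475, had 0.0183, 0.0151 and 0.0502 RPKM at NT and 0.471, 0.878 and 1.12 RPKM at HT. PIP2 proteins are the PIP group with the stronger water transport in frog oocytes. The groups did not overlap, and the log2 change was 4.79 ± 0.79 (edgeR, adjusted p = 0.0019). The tonoplast intrinsic protein PGSC0003DMG400016528 had 0.0806, 0.0498 and 0.0369 RPKM at NT and 2.05, 1.16 and 1.41 RPKM at HT. Again all HT libraries were higher, with a log2 change of 4.75 ± 0.68 (edgeR, adjusted p = 0.0014). These 4 remained called with DESeq2, at log2 changes of 3.46 to 4.22.

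A further 10 aquaporins, PGSC0003DMG400007134 among them, rose by 1.82 to 3.50 on the log2 scale, with NT means of 0.301 to 77.0 RPKM and HT means of 1.97 to 377 RPKM. None had overlapping groups. Aquaglyceroporin Tipa, PGSC0003DMG400009604, went from 4.98 ± 1.97 to 55.4 ± 10.3 RPKM (SD, n = 3), a log2 change of 3.47. The plasma membrane intrinsic proteins PGSC0003DMG400020906 and PGSC0003DMG400023466 changed by 3.08 and 2.73, PIP2 PGSC0003DMG400026718 by 1.99 and the PIP subfamily member PGSC0003DMG400004438 by 2.09. Aquaporin PGSC0003DMG400020742, the most abundant with no subfamily in its name, went from 28.2 ± 4.53 to 99.5 ± 17.8 RPKM, a log2 change of 1.82. With DESeq2 only 4 of the 10 were still called, and PGSC0003DMG400026718, PGSC0003DMG400004438 and PGSC0003DMG400020742 were not (adjusted p = 0.23, 0.23 and 0.28).

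HT replicate 1 set the size of some of these rises. It stood more than 2-fold above both other HT libraries for 5 of the 17 aquaporins (29.4%), against 19.4% of all listed transcripts. Aquaporin PGSC0003DMG400006183 had 91.0 RPKM there and 12.3 and 15.6 in the others, and its log2 change fell from 3.50 to 1.99 without that library. Aquaporin TIP2;3, PGSC0003DMG400026463, had 50.8 RPKM there and 8.03 and 9.60 in the others. Its log2 change of 1.89 (edgeR, adjusted p = 0.037) became 0.52 without that library (adjusted p = 0.28), and the call was also lost without NT replicate 1, 2 or 3 (adjusted p = 0.074 to 0.12). The NIP subfamily member PGSC0003DMG401013710 changed by 2.69 (adjusted p = 0.027), and by 1.92 without HT replicate 1 (adjusted p = 0.10). Its call was lost as well without NT replicate 1 or 2, with 2.29 and 2.23, and its log2 change was 4.38 without NT replicate 3.

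**Figure D3:**
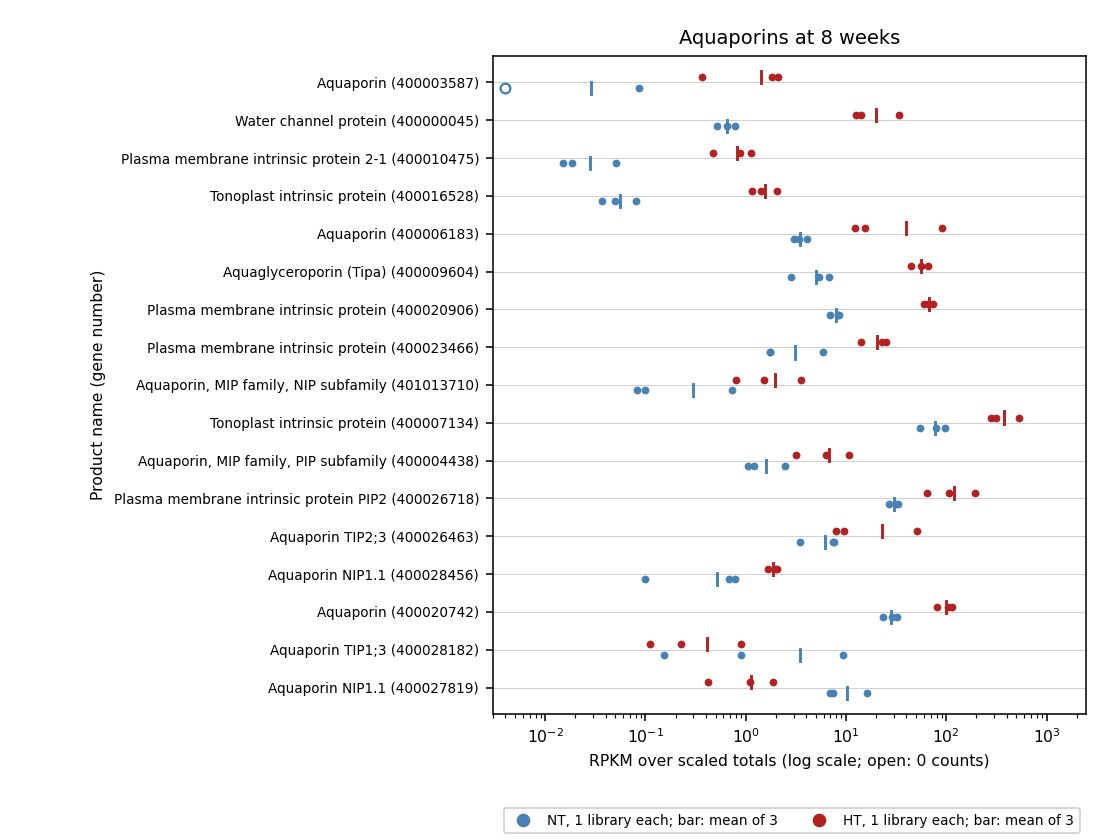
Levels of the 17 aquaporins at 8 weeks in RPKM on a log scale, 1 point per library, NT in blue and HT in red, with a bar at the mean of 3 and open points for 0 counts. The HT points lie above the NT points for 15 transcripts, below them for Aquaporin NIP1.1 PGSC0003DMG400027819, and overlap for TIP1;3.

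The pair of transcripts named Aquaporin NIP1.1 went in opposite directions at 8 weeks. PGSC0003DMG400027819 had 7.50, 16.3 and 6.86 RPKM at NT and 0.417, 1.87 and 1.09 RPKM at HT. It was lower in all HT libraries and fell by 3.18 ± 0.68 on the log2 scale (edgeR, adjusted p = 0.0038). PGSC0003DMG400028456 had 0.685, 0.773 and 0.0989 RPKM at NT and 1.95, 1.65 and 2.05 RPKM at HT. It was higher in all HT libraries, by 1.85 ± 0.75 (edgeR, adjusted p = 0.039), but the call was lost when any 1 of the 6 libraries was left out (adjusted p = 0.052 to 0.085, log2 change 1.36 to 2.26).

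Aquaporin TIP1;3, PGSC0003DMG400028182, was the only aquaporin tested at 8 weeks and not called. Its Arabidopsis namesake is a pollen water channel. It had 0.894, 9.28 and 0.154 RPKM at NT and 0.896, 0.224 and 0.111 RPKM at HT. The groups overlapped, and NT replicate 2 stood far above the rest. The log2 change of −3.07 ± 1.39 (edgeR, adjusted p = 0.057) was −0.35 without that library, and was called without HT replicate 1 (−4.34, adjusted p = 0.040), without NT replicate 3 (−3.63, adjusted p = 0.028), with TMM (adjusted p = 0.036) and with DESeq2 (adjusted p = 0.00037).

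All 8 ABA-named transcripts fell at 8 weeks, with a median log2 change of −2.75. Of these, 7 were named ABA receptor PYL4, a member of the receptor family that binds the hormone. Their summed level was 420, 345 and 245 RPKM in the NT libraries and 40.8, 71.0 and 47.6 RPKM in the HT libraries. The highest HT library lay well below the lowest NT library. Reads could have been split among close copies of the receptor gene: no source used here says how reads with several matches were counted.

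The most abundant receptor transcript, PGSC0003DMG400023949, made up 71.7% of the summed level at NT and 61.6% at HT. It had 310, 232 and 182 RPKM at NT and 23.3, 46.2 and 28.7 RPKM at HT. The groups were far apart, and it fell by 2.88 ± 0.45 on the log2 scale (edgeR, adjusted p = 0.0016).

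The largest fall was that of PGSC0003DMG400027118, with 8.72, 15.4 and 3.23 RPKM at NT and 0.249, 0.589 and 0.140 RPKM at HT. NT replicate 3 was the lowest at NT and still stood above all HT libraries. The log2 change was −4.79 ± 0.83 (edgeR, adjusted p = 0.0022). PGSC0003DMG400020607 had 6.56, 4.59 and 1.33 RPKM at NT and 0.484, 0.112 and 0.161 RPKM at HT, a change of −4.04 ± 0.86. PGSC0003DMG400020606 had 5.71, 4.87 and 0.974 RPKM at NT and 0.577, 0.481 and 0.143 RPKM at HT, a change of −3.26 ± 0.84. Neither overlapped between groups, and the adjusted p-values by edgeR were 0.0038 and 0.0073.

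The other 3 receptor transcripts fell by 1.81 to 2.62 on the log2 scale. PGSC0003DMG400011033 varied least among the NT libraries, at 40.6, 42.8 and 41.4 RPKM at NT and 8.67, 16.2 and 10.7 RPKM at HT. PGSC0003DMG400015897 went from 28.5 ± 14.1 to 6.25 ± 0.932 RPKM and PGSC0003DMG400029194 from 8.10 ± 3.93 to 1.32 ± 0.901 RPKM (SD, n = 3). ABA 8'-hydroxylase CYP707A1, PGSC0003DMG400001960, the enzyme that starts the breakdown of ABA, had 2.36, 5.33 and 1.53 RPKM at NT and 0.471, 0.538 and 0.934 RPKM at HT. It did not overlap between groups and fell by 2.24 ± 0.62 (edgeR, adjusted p = 0.0094).

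Transcripts outside the members whose names matched a list for ABA synthesis and breakdown were mostly lower at HT at 8 weeks as well. Of 6 listed transcripts for ABA synthesis and breakdown, 4 fell and 2 rose, and with DESeq2 4 fell and 0 rose. With a replicate block 3 fell and 2 rose, and without NT replicate 1 or 2, 3 fell and 1 rose. The beta-carotene hydroxylase PGSC0003DMG400010169 fell by 4.02 ± 1.38 (edgeR, adjusted p = 0.021), but its groups overlapped. It had 3.91, 4.09 and 0.228 RPKM at NT and 0.263, 0 and 0.241 RPKM at HT. Neoxanthin synthase PGSC0003DMG402019589, which makes a carotenoid precursor of ABA, had 49.5, 42.3 and 5.50 RPKM at NT and 0.164, 0.125 and 0.491 RPKM at HT. It fell by 6.95 ± 1.03 on the log2 scale (edgeR, adjusted p = 0.0015), with NT replicate 3 the lowest of its group. A second transcript of that name, PGSC0003DMG400024184, fell by 4.04 ± 0.84. One more of that name, PGSC0003DMG401026407, had 1.16, 2.16 and 1.5 RPKM at NT and 16.6, 4.66 and 5.23 RPKM at HT and rose by 2.46 ± 0.63 (edgeR, adjusted p = 0.0070), a call that DESeq2 did not make (adjusted p = 0.082). The other that rose was carotenoid cleavage dioxygenase 4a, PGSC0003DMG402001968, by 3.09 ± 1.28 (edgeR, adjusted p = 0.042), with most of its reads in HT replicate 2. It was listed for the words carotenoid cleavage in its name, which do not by themselves place it in ABA synthesis. A 9-cis-epoxycarotenoid dioxygenase, PGSC0003DMG400004311, which cleaves the precursor in the step that commits to ABA, had 6.31, 10.7 and 9.35 RPKM at NT and 0.0832, 0.191 and 0.837 RPKM at HT. It did not overlap between groups and fell by 4.57 ± 0.87 (edgeR, adjusted p = 0.0028).

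PP2Cs went mostly the other way in number but not in summed level. Of 8 listed at 8 weeks, 7 rose and 1 fell; the product names do not say which of them belong to the group that acts on ABA signals. Their summed level went from 95.5 ± 2.71 RPKM at NT to 52.0 ± 10.2 RPKM at HT (SD, n = 3). The one that fell, PGSC0003DMG400032820, made up 93.0% of the sum at NT and 54.6% at HT. It had 88.1, 85.8 and 92.5 RPKM at NT and 17.5, 28.1 and 39.6 RPKM at HT. The groups did not overlap, and it fell by 1.64 ± 0.41 on the log2 scale (edgeR, adjusted p = 0.0065).

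The PP2C transcripts that rose had NT means of 0.00976 to 5.08 RPKM. PGSC0003DMG400011441 had 0, 0 and 2 counts at NT and 0.562, 0.142 and 0.211 RPKM at HT, where NT replicate 3 had 0.0293 RPKM. Its pooled ratio of HT to NT was 30.5, with an exact 95% interval for counting error of 8.14 to 257. The log2 change of 4.74 ± 1.15 (edgeR, adjusted p = 0.0060) was 7.51 without NT replicate 3, a size that the data do not set, as the NT libraries left held 0 counts. PGSC0003DMG400011443 had 0.0877, 0.0723 and 0.160 RPKM at NT and 1.16, 0.938 and 1.32 RPKM at HT, a rise of 3.39 ± 0.63. PGSC0003DMG401011442 had 0.184, 0.304 and 0.365 RPKM at NT and 2.58, 1.27 and 1.58 RPKM at HT, a rise of 2.66 ± 0.59. These 3 carry consecutive gene numbers, and of the PP2Cs that rose they were the ones still called with DESeq2.

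PGSC0003DMG400019604 had 0.454, 0.864 and 0.937 RPKM at NT and 2.86, 2.54 and 5.77 RPKM at HT, with no overlap, and rose by 2.31 ± 0.55. PGSC0003DMG400012566, the most abundant of those that rose, went from 5.08 ± 0.870 to 15.0 ± 2.28 RPKM (SD, n = 3), a log2 change of 1.56. PGSC0003DMG400001795 changed by 1.58 (edgeR, adjusted p = 0.021), and its call was lost without HT replicate 2 (1.33, adjusted p = 0.085), without NT replicate 1 (1.49, adjusted p = 0.065) and with TMM (adjusted p = 0.061). The rice-named kinase SAPK1, PGSC0003DMG400016156, of the SnRK2 family that such phosphatases act on in Arabidopsis, was the only listed transcript of an ABA-linked kinase list. It had 0.676, 0.935 and 0.538 RPKM at NT and 2.48, 2.67 and 2.93 RPKM at HT. It rose by 1.91 ± 0.52 (edgeR, adjusted p = 0.0088), a call that DESeq2 did not make (adjusted p = 0.26).

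**Figure D4:**
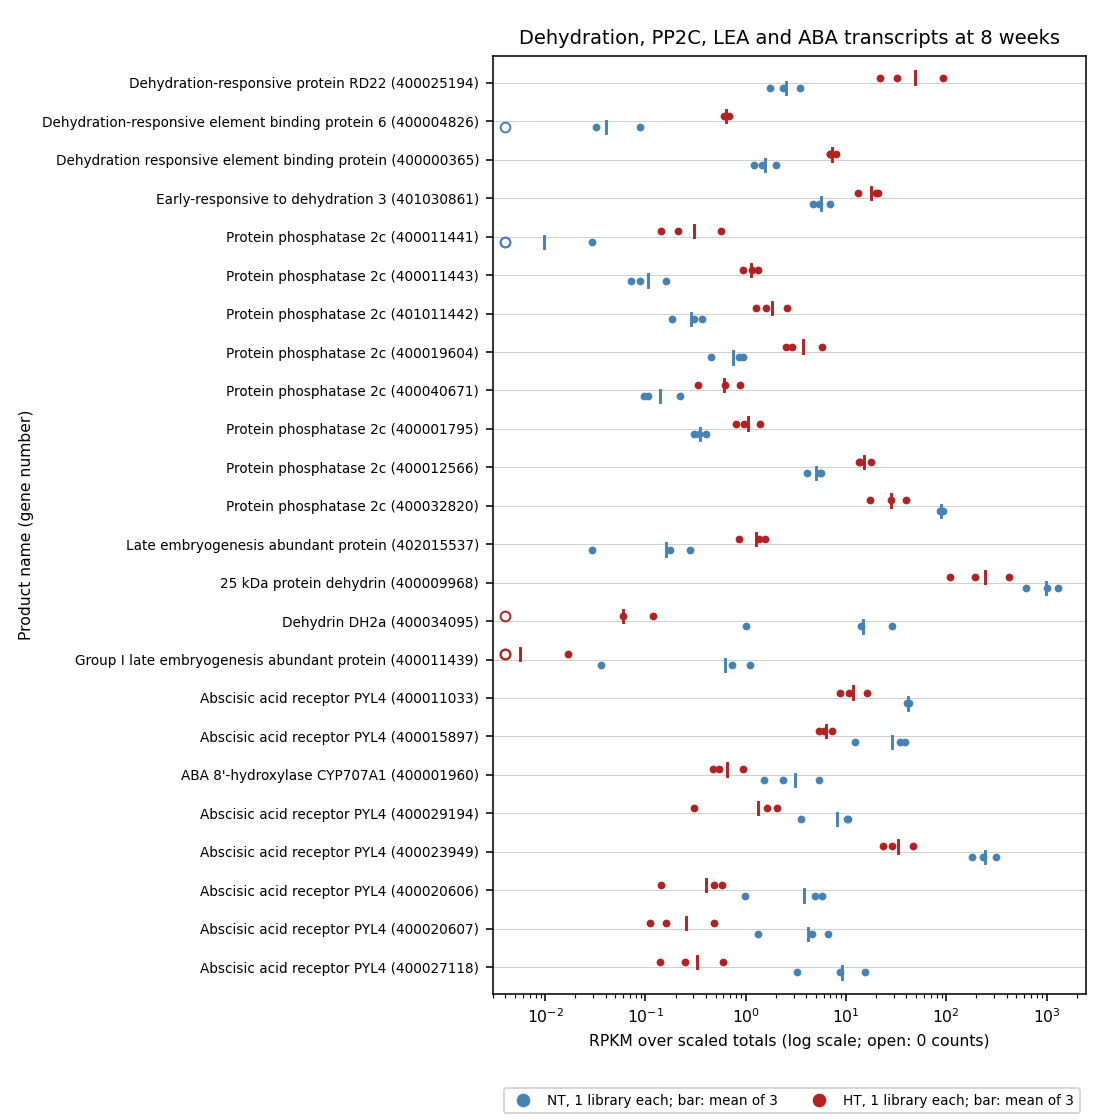
Levels of the 24 members other than aquaporins at 8 weeks in RPKM on a log scale, 1 point per library, NT in blue and HT in red, with a bar at the mean of 3 and open points for 0 counts. The 8 ABA-named transcripts at the bottom lie lower at HT in every library, as do 3 of the 4 LEA proteins and dehydrins, while the 4 dehydration-named transcripts at the top lie higher.

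Dehydrins were lower at HT at 8 weeks. Dehydrin DH2a, PGSC0003DMG400034095, had 14.2, 29.0 and 1.0 RPKM at NT and 0.0598, 0.120 and 0 RPKM at HT. All HT libraries were below the lowest NT library, and it fell by 7.86 ± 1.46 on the log2 scale (edgeR, adjusted p = 0.0026), the largest change of any member. The 25 kDa dehydrin, PGSC0003DMG400009968, was the most abundant member at NT, with 1314, 1003 and 626 RPKM at NT and 109, 194 and 423 RPKM at HT. Its groups did not overlap, and it fell by 2.02 ± 0.58 (edgeR, adjusted p = 0.011).

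The Group I LEA protein PGSC0003DMG400011439 did not pass the edgeR count filter at its counts of 37, 69 and 2 at NT and 1, 0 and 0 at HT. DESeq2 called it lower, with a log2 change of −8.12 (adjusted p = 3.4e-06). Its pooled ratio of NT to HT was 122, with an exact 95% interval for counting error of 21.4 to 4864. A further LEA protein, PGSC0003DMG402015537, went the other way, from 0.176, 0.277 and 0.0292 RPKM at NT to 1.37, 0.849 and 1.55 RPKM at HT. All HT libraries were above NT, and it rose by 2.96 ± 0.79 (edgeR, adjusted p = 0.0085), a call that DESeq2 did not make (adjusted p = 0.055).

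NT replicate 3 at 8 weeks held less of these transcripts than its group. It was more than 2-fold below both other NT libraries for 8 of the 12 LEA, dehydrin and ABA-named members (66.7%), against 11.1% of all listed transcripts. The 4 LEA proteins and dehydrins and 6 of the 7 PYL4 transcripts had their lowest NT value there, where 31.8% of all listed transcripts did. Without that library the log2 change of dehydrin DH2a was still called, as were those of all 8 ABA-named transcripts.

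Transcripts named for dehydration were higher at HT at 8 weeks, all 4 of those listed. RD22, PGSC0003DMG400025194, named for a drought- and ABA-induced gene of Arabidopsis, had 1.75, 2.36 and 3.44 RPKM at NT and 92.8, 22.1 and 32.4 RPKM at HT. HT replicate 1 was the highest, and the other HT libraries also lay far above NT. It rose by 4.28 ± 0.66 on the log2 scale (edgeR, adjusted p = 0.0016).

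Dehydration-responsive element binding proteins are transcription factors that bind a promoter element of drought- and cold-induced genes. The one numbered 6, PGSC0003DMG400004826, had 0.0324, 0 and 0.0890 RPKM at NT and 0.681, 0.634 and 0.602 RPKM at HT. The HT libraries were nearly level, and it rose by 3.94 ± 0.94 (edgeR, adjusted p = 0.0057). PGSC0003DMG400000365 had 1.20, 1.44 and 2.01 RPKM at NT and 6.91, 7.92 and 6.97 RPKM at HT, a rise of 2.23 ± 0.45. Early-responsive to dehydration 3, PGSC0003DMG401030861, had 5.35, 4.70 and 6.94 RPKM at NT and 20.7, 13.0 and 19.8 RPKM at HT, a rise of 1.66 ± 0.39. Neither overlapped between groups, and only the last was not called with DESeq2 (adjusted p = 0.40). A transcript named DREB outside the members, PGSC0003DMG400015890, did not pass the edgeR count filter at its counts of 19, 72 and 6 at NT and 3, 6 and 8 at HT. Its groups overlapped, with a DESeq2 log2 change of −3.86 (adjusted p = 0.00027).

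Most other transcripts named for water, cold or salt stress did not share that direction. Of 6 listed at 8 weeks for drought, cold or salt, 4 were tested and all 4 fell. The cold-induced glucosyl transferases PGSC0003DMG400020944 and PGSC0003DMG400006737 fell with overlapping groups. Their NT replicate 3 had 0.308 and 4.61 RPKM, within HT ranges of 0.108 to 0.434 and 1.70 to 5.33 RPKM. Without NT replicate 1, 5 were tested, of which 3 fell and 1 rose. Drought-induced protein 1, PGSC0003DMG400014051, had 396, 291 and 283 RPKM at NT and 50.0, 102 and 119 RPKM at HT, and fell by 1.84 ± 0.44 (edgeR, adjusted p = 0.0058). The low temperature and salt responsive protein PGSC0003DMG400018240 went from 234 ± 29.8 to 76.1 ± 37.4 RPKM (SD, n = 3), a fall of 1.62 ± 0.48. With DESeq2 all 6 were tested, and 5 fell and 1 rose. The one that rose, salt responsive protein 1, PGSC0003DMG400004367, was not tested by edgeR. It had 1, 2 and 2 counts at NT and 58, 32 and 10 at HT, without overlap. Its DESeq2 log2 change was 2.82 (adjusted p = 0.021).

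Osmolytes are small solutes that cells build up against water loss. Of 10 listed transcripts for their synthesis or transport at 8 weeks, 3 rose, 6 fell and 1 was not tested, and with DESeq2 2 rose and 6 fell. Galactinol synthase PGSC0003DMG400005216, which opens the path to raffinose sugars, had 3.57, 4.03 and 5.86 RPKM at NT and 26.2, 38.0 and 51.2 RPKM at HT. It rose by 3.10 ± 0.44 (edgeR, adjusted p = 0.0014), and inositol-3-phosphate synthase PGSC0003DMG400027916, which makes the inositol used by that path, rose by 2.83 ± 0.44. Trehalose-6-phosphate synthase PGSC0003DMG400027449 had 40.8, 100 and 29.6 RPKM at NT and 4.58, 3.64 and 5.54 RPKM at HT. It fell by 3.63 ± 0.56 (edgeR, adjusted p = 0.0016). Another transcript of that name, PGSC0003DMG400028467, also fell (−1.71), while PGSC0003DMG402017546 rose by 1.74 ± 0.67 (edgeR, adjusted p = 0.032). DESeq2 did not call that rise (adjusted p = 0.51). Proline transporters (log2 changes of −2.41, −2.05 and −1.53) and a sorbitol transporter (−1.52) made up the other falls.

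At 3 weeks, 8 members were listed and 6 could be tested, of which 4 rose and 2 fell. Over the 1280 tested transcripts of that list 60.3% rose, 37.2% fell and 97.5% were called in all. For 4 of the 6 the groups did not overlap, against 91.9% of all tested. DESeq2's size factors lowered the log2 change of all transcripts by a median of 1.21, and TMM by 0.65. With DESeq2, 3 members rose and 2 fell, and over the list 227 rose and 540 fell in place of 772 and 476. No ABA-named transcript was on the list for 3 weeks.

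Both NIP aquaporins listed at 3 weeks rose. The NIP subfamily member PGSC0003DMG400014123 had 1.99, 1.77 and 0.939 RPKM at NT and 7.71, 5.40 and 6.25 RPKM at HT. It was higher in all HT libraries, by 2.04 ± 0.36 on the log2 scale (edgeR, adjusted p = 0.0021). Aquaporin NIP1.1 PGSC0003DMG400028456 had 0.184, 0.286 and 0.219 RPKM at NT and 0.763, 1.24 and 1.25 RPKM at HT. It rose by 2.21 ± 0.43 (edgeR, adjusted p = 0.0030), with no overlap, and was not called with DESeq2 (adjusted p = 0.11).

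Aquaporin TIP1;3 PGSC0003DMG400028182 had 1.74, 9.58 and 19.9 RPKM at NT and 0.818, 3.07 and 0.818 RPKM at HT at 3 weeks. The NT libraries spread widely, and NT replicate 1 lay below HT replicate 2. It fell by 2.73 ± 0.90 (edgeR, adjusted p = 0.020), and the call was lost without HT replicate 1 or 3 (−2.42, adjusted p = 0.069 for either) and without NT replicate 3 (−1.85, adjusted p = 0.073).

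Of the PP2Cs at 3 weeks, PP2C 23, PGSC0003DMG400008840, had 0.663, 0.733 and 0.506 RPKM at NT and 2.03, 2.09 and 2.42 RPKM at HT. The groups were well apart, and it rose by 1.78 ± 0.29 (edgeR, adjusted p = 0.0016). PGSC0003DMG400040671 had 0.215, 0.190 and 0.0582 RPKM at NT and 1.12, 0.907 and 1.34 RPKM at HT, a rise of 2.85 ± 0.51 (edgeR, adjusted p = 0.0022). PGSC0003DMG400019154 did not pass the edgeR count filter, with 0, 2 and 0 counts at NT and 12, 14 and 16 at HT. Its pooled ratio was 15.1 (exact 95% interval for counting error 3.93 to 129), and DESeq2 did not call it (adjusted p = 0.07).

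The ethylene-responsive LEA transcript PGSC0003DMG400000066 had 2.13, 7.72 and 11.7 RPKM at NT and 1.67, 2.17 and 3.05 RPKM at HT at 3 weeks. NT replicate 1 lay among the HT libraries. It fell by 1.64 ± 0.59 (edgeR, adjusted p = 0.026), and the call was lost without HT replicate 1 or 2 (adjusted p = 0.087 and 0.079), without NT replicate 2 or 3 (adjusted p = 0.057 and 0.10, with −1.10 in the last) and with library totals alone (adjusted p = 0.067). RD22 PGSC0003DMG400019937, a gene other than the one listed at 8 weeks, had 0, 1 and 2 counts at NT and 7, 34 and 2 at HT, too few for the test. Its groups overlapped, and HT replicate 2 held most of the reads, with a pooled ratio of 10.3 (exact 95% interval for counting error 3.30 to 51.9).

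The other pathway lists were short at 3 weeks. A 9-cis-epoxycarotenoid dioxygenase, PGSC0003DMG400027633, a different gene from the one that fell at 8 weeks, had 5.33, 2.01 and 2.93 RPKM at NT and 9.04, 11.6 and 15.8 RPKM at HT. All HT libraries were higher, and it rose by 1.83 ± 0.42 (edgeR, adjusted p = 0.0054), a call that DESeq2 did not make (adjusted p = 0.24). Salt responsive protein 2, PGSC0003DMG400010713, had 9.14, 8.66 and 4.65 RPKM at NT and 32.8, 59.5 and 100 RPKM at HT, a rise of 3.10 ± 0.47. Of 5 listed osmolyte transcripts 2 rose and 2 fell, and with DESeq2 0 rose and 2 fell. The 2 that fell, both trehalose-6-phosphate synthases, had overlapping groups. Neither was called without HT replicate 1, 2 or 3, without NT replicate 2 or 3, or with totals alone, and 1 was with a replicate block. Those that rose were stachyose synthase PGSC0003DMG400009017, which lengthens raffinose sugars, by 1.83 ± 0.36, and a proline transporter, PGSC0003DMG400031456, by 1.65 ± 0.38. The same transporter fell at 8 weeks, with a log2 change of −2.41.

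The 3 members on both lists could be compared between ages. Their HT effects did not differ between 8 and 3 weeks past the threshold, where 33.7% of the 576 tested transcripts on both lists did. The difference of log2 changes, 8 minus 3 weeks, was −0.34 ± 1.73 for TIP1;3, −0.37 ± 0.86 for NIP1.1 PGSC0003DMG400028456 and −0.76 ± 0.85 for PP2C PGSC0003DMG400040671. The adjusted p-values by edgeR were 0.96, 0.85 and 0.58, and standard errors of this size leave differences of a few fold undetectable.

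PP2C PGSC0003DMG400040671 had 0.0957, 0.221 and 0.105 RPKM at NT and 0.869, 0.621 and 0.331 RPKM at HT at 8 weeks. All HT libraries were higher, by 2.08 ± 0.67 (edgeR, adjusted p = 0.017), but the call was lost without HT replicate 1 (1.74, adjusted p = 0.051), without NT replicate 1 (1.88, adjusted p = 0.064) and without NT replicate 3 (1.91, adjusted p = 0.057). Within a temperature, and over library totals without the shift, none of the 3 members differed between ages past the threshold. At NT, 46.2% of the tested transcripts did, and the log2 changes from 3 to 8 weeks were −1.44 for TIP1;3, 1.31 for NIP1.1 and 0.03 for the PP2C (edgeR, adjusted p = 0.36, 0.12 and 0.99). Without NT replicate 2 at 8 weeks the fall of TIP1;3 was called (−4.16, adjusted p = 0.031), and without NT replicate 3 the rise of NIP1.1 was (1.80, adjusted p = 0.010). At HT, 7.47% did, and the changes were −2.09, 0.64 and −1.04 (edgeR, adjusted p = 0.34, 0.56 and 0.28).

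**Figure D5:**
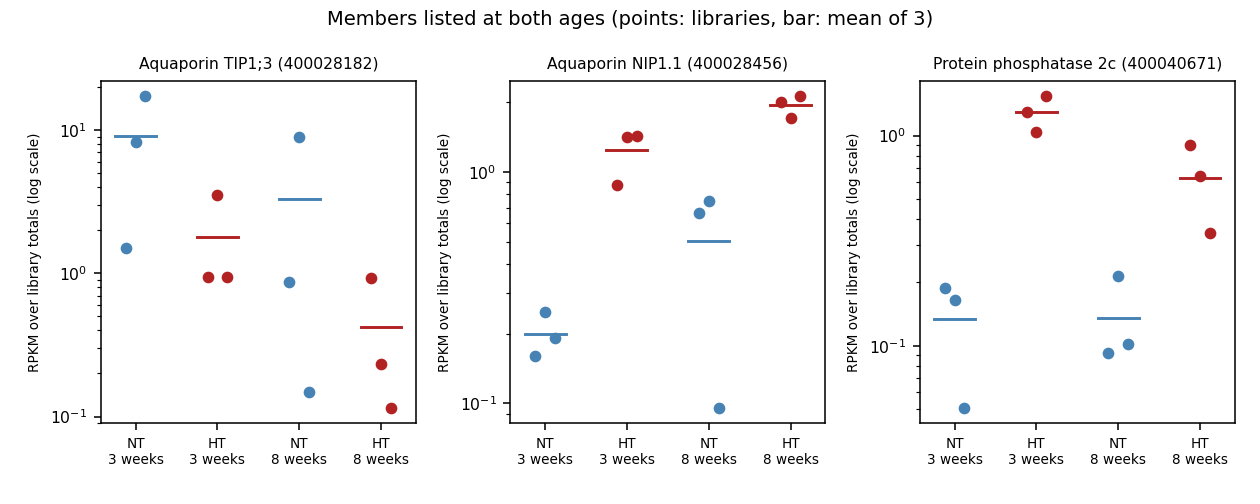
Levels of the 3 members listed at both ages in RPKM over library totals on a log scale, by group, 1 point per library with a bar at the mean of 3, NT in blue and HT in red. HT lies above NT at both ages for NIP1.1 and the PP2C, and the points of TIP1;3 overlap between temperatures at both ages.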

How the data were processed

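Members and lists were chosen with earlier results of these data known. Every test ran on the raw counts that the authors deposited. Group means are a signal column that the authors averaged from those counts, and were not tested. The larger group mean was deposited as RPKM, and with counts and transcript lengths it gave each library total. The authors' deposited log2 fold change departed from counts over those totals by a median of −0.4017 at 3 weeks and −0.0961 at 8 weeks. The SD about this shift was 0.0038 at 3 weeks and 0.0291 at 8 weeks. Factors fitted per library left SDs of 0.0016 and 0.003. The shift was applied as a constant, shared equally between the HT and NT totals. The authors' signed fold change is a score (the ratio, or minus its inverse) and was not used. Deposited Bonferroni values over p-values showed that the authors tested 33777 transcripts at 3 weeks and 34088 at 8 weeks. No source used here gives the aligner, counting program, use of strand or genome build. The reference gene table matched 0 identifiers, so no positions or sequences are given.

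Tests used edgeR 4.0.16 in R 4.3.3 (filterByExpr, quasi-likelihood F test, Benjamini-Hochberg, threshold 0.05) on each age's whole list. The difference between ages was an interaction term over all 12 libraries, and ages were compared within a temperature on the totals without the shift. Standard errors were taken as the size of the log2 change divided by the square root of F. The method was run on simulated counts in which most transcripts were left unchanged. The lists hold only called transcripts, so that run does not bear on how reliable calls from them are. Alternatives were DESeq2 1.42.0, TMM, totals alone, no filter, a replicate block, leaving out each library, adjustment over the authors' tests, and a threshold of 0.01. Ratios pool the 3 libraries, with an exact binomial interval at 95% that covers counting error only. Tables and figures were made with Python 3.11.15, pandas 2.3.3, numpy 2.4.6, SciPy 1.17.1 and matplotlib 3.10.9.

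Values in every library are given for members on both lists and, per role and age, up to 4 largest rises and 4 largest falls among calls with groups that do not overlap and 10 counts or more on average in the higher group. Other pathway lists follow the same conditions with up to 3 transcripts. Values of other members, and of listed transcripts outside these conditions, were printed after they were seen.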

Additional observations from a re-analysis of the deposited data

How the results depend on the processing

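None of the 39 called members at 8 weeks, or of the 6 at 3 weeks, changed direction under any setting tried. Of the 39, 26 were still called with DESeq2, 36 with TMM, 29 when adjusted over the authors' tests, 31 at 0.01, 37 with a replicate block, and 34 to 38 when 1 library was left out. All 39 were still called with totals alone, with no filter and with per-library factors, a setting chosen after seeing the data. Of the 6, these numbers were 5, 6, 1, 4, 6 and 4 to 6. With DESeq2, 14 members rose at 8 weeks in place of 27, 8 aquaporins in place of 15, and 3 PP2Cs in place of 7. DESeq2 and TMM took their scaling from the listed transcripts alone, of which most rose. Calls lost or kept under them do not say which scaling is right. Over all transcripts, the rises numbered 1431 in place of 3067 at 8 weeks and 227 in place of 772 at 3 weeks. Adjusted over the authors' tests, 1788 rose and 1172 fell at 8 weeks, and 162 rose and 121 fell at 3 weeks, where 1 member rose and 0 fell. Members that fell at 3 weeks numbered 1 with totals alone, 0 at 0.01, and 0 to 2 when 1 library was left out. The cause of these changes was not tested. Same-numbered NT and HT libraries did not deviate together (correlations of 0.17, 0.10 and 0.02 at 3 weeks, −0.11, 0.03 and −0.01 at 8 weeks), so the numbers were not taken to pair them. With the replicate block, PP2C PGSC0003DMG400001795 changed by 1.56 (edgeR, adjusted p = 0.061), and 20 transcripts in place of 43 differed between ages at HT, a number that ran from 8 to 104 when 1 library was left out. The difference between ages of the HT effect turned sign, never past the threshold, for TIP1;3 with DESeq2 (0.79), with the block (0.62) and when 1 library was left out (−1.62 to 2.37), for NIP1.1 with DESeq2 (0.39) and when 1 library was left out (−0.85 to 0.05), and for PP2C PGSC0003DMG400040671 with DESeq2 (0.14). The change of that PP2C from 3 to 8 weeks at NT was −0.12 on totals with the shift, and ran from −0.46 to 0.34 when 1 library was left out. With 3 libraries a group, and counts of 0 to 2 in some groups, fold changes of the lowest members are imprecise, and the lists hold no transcript that the authors left out.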
